A study of Mus musculus with 2 samples.

Results

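Nodal, its TGF-beta family partner Gdf3, their shared co-receptor Tdgf1, the antagonists Lefty1, Lefty2 and Cer1, the transcription factor Foxh1 and the precursor-cleaving proteases Pcsk6 and Furin were followed in mouse embryonic stem cells, at day 15 of embryoid body differentiation against the undifferentiated state. The 9 genes of the 18193 measured were chosen by name. Every probe set that names one of them alone was taken, which gave 14 of the 34945 probe sets that name 1 gene. The cells were PGK12.1, a single female stem cell line made from blastocysts of a 129 mother and a (129 X PGK)F1 father, and were used at passages 14 to 18. One array held RNA of cells differentiated for 15 days as embryoid bodies. The other held RNA of undifferentiated cells, which had been grown with 1000 U/ml leukemia inhibitory factor on fibroblast feeders. Feeder cells were depleted on gelatin before collection or differentiation. With 1 array per condition no value has a replicate error, no test between conditions can be made, and each difference below is a size on this pair of arrays.

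Nodal is a secreted ligand that binds activin receptors together with the co-receptor CRIPTO, the product of Tdgf1. The receptors phosphorylate SMAD2 and SMAD3, which enter the nucleus with SMAD4 and act on DNA with partners such as FOXH1. LEFTY proteins are induced by the pathway and block it, so that Nodal and its inhibitors form a feedback loop. In the mouse embryo the pathway keeps the epiblast undifferentiated and later patterns the primitive streak and the left-right axis. FURIN and PACE4, the product of Pcsk6, cut the Nodal precursor to its active form.

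A signal is the deposited linear intensity of a probe set. A log2 difference is log2(signal + 16) at day 15 minus that in undifferentiated cells, and a fold is the ratio of the signals themselves. A gene with several probe sets was represented by the brightest one, meaning the one with the highest mean log2 signal over both arrays. A gene was called where its log2 difference reached 2-fold and its mean log2 signal was no lower than the median probe set. That median stood at about 36.5. The brightest of 15 bacterial control probe sets without target RNA read 35.6. Signals of different probe sets depend on their probes. Their levels were compared between genes only to find the 3 genes nearest to Nodal, and were added up only in the sums over marker lists.

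Of the 9 genes, 8 passed the filter on low signals. Gdf3, Foxh1 and Tdgf1 were at least 2-fold lower at day 15, Furin was at least 2-fold higher, and Nodal, Pcsk6, Lefty1 and Lefty2 lay between. Over all 11960 genes past the filter 8.41% were at least 2-fold lower and 16.5% at least 2-fold higher. The median log2 difference was -0.69 over the 8 genes and 0.00052 over all genes past the filter. In bulk RNA, fewer cells that express a gene and less of its RNA per cell cannot be told apart.

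**Figure D1:**
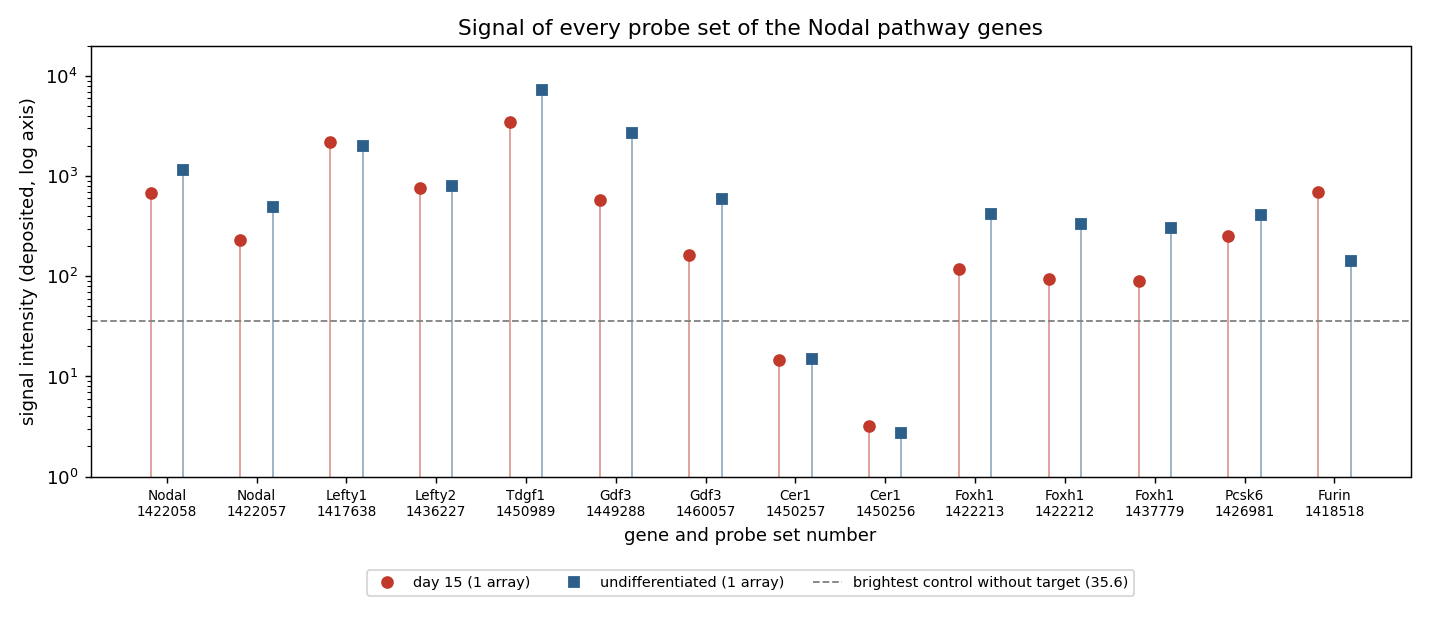
Signal intensity (log axis) of all 14 probe sets of the Nodal pathway genes, with day 15 as circles and undifferentiated cells as squares, 1 array each, and the brightest control without target (35.6) as a dashed line. Both Lefty genes had nearly the same signal on both arrays, Furin was brighter at day 15, and both Cer1 probe sets lay below the dashed line; heights of different probe sets are not comparable.

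The ligand genes were lower at day 15, Gdf3 by more than Nodal. Nodal had a signal of 684 at day 15 and 1160 in undifferentiated cells on its brighter probe set (1422058_at), which is 1.70-fold lower with a log2 difference of -0.75. Its dimmer probe set (1422057_at) read 233 at day 15 and 489 in undifferentiated cells, which is 2.10-fold lower with a log2 difference of -1.02. The 2 probe sets thus lay on either side of the 2-fold line while having the same direction. Of all genes past the filter, 15.2% had a log2 difference below that of the brighter Nodal probe set.

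Gdf3, a ligand that signals through the same co-receptor, had the most negative difference of the 9 genes. Its brighter probe set (1449288_at) had a signal of 585 at day 15 and 2698 in undifferentiated cells, which is 4.61-fold lower with a log2 difference of -2.18. The other (1460057_at) had 163 at day 15 and 592 in undifferentiated cells, which is 3.64-fold lower with a log2 difference of -1.77. Of the 11960 genes, 39 had a log2 difference below that of Gdf3, or 0.326%. On the brighter probe sets the log2 difference of Gdf3 minus that of Nodal was -1.43. A scaling factor common to an array hardly touches this contrast. The dimmer probe sets, at -1.77 for Gdf3 and -1.02 for Nodal, lay closer together.

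Tdgf1, which encodes the membrane-anchored co-receptor CRIPTO, had a signal of 3489 at day 15 and 7190 in undifferentiated cells. It was 2.06-fold lower, with a log2 difference of -1.04 that is just past the 2-fold line, and with quantile normalization the difference was -0.87. Its 1 probe set (1450989_at) cannot be set against another of the gene. The RefSeq annotation holds the pseudogenes Tdgf1-ps1 and Tdgf1-ps2, and whether the probes also bind transcripts of these was not tested.

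The bases before the annotated starts of the ligand gene Nodal and its co-receptor gene Tdgf1 are shown. Both genes were lower at day 15, Nodal short of the 2-fold line on its brighter probe set. RefSeq promoter entries (build GRCm38.p6) matched 5 of the 9 genes, Nodal, Tdgf1, Cer1, Pcsk6 and Furin. The windows of 250 bases end at the base before the start and lie at chr10:61417722-61417971 on the plus strand for Nodal and at chr9:110946159-110946408 on the minus strand for Tdgf1. Capitals mark matches on either strand to AATNNACA (FOXH1-type), CAGACA (SMAD-type), GGGCGG (GC box), CCAAT and TATAAA, and no match overlapped another in these windows.
Nodal: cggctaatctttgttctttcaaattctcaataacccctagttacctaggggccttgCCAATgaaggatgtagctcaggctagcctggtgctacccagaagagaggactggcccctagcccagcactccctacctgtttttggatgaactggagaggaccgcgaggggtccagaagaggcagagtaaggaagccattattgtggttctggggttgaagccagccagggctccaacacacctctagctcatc
Tdgf1: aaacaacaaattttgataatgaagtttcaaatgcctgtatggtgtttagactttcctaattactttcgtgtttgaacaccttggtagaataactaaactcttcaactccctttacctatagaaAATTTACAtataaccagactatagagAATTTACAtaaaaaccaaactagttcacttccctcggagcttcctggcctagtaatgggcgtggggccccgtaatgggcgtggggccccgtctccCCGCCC

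The Tdgf1 window held 2 FOXH1-type matches, both reading AATTTACA, and 1 GC box that ends at the base before the start. The Nodal window held 1 CCAAT match and no match to the other motifs. The GC content was 42% in the Tdgf1 window and 53.2% in the Nodal window. Over all windows the median was 52.4% and the lower quartile 45.2%. Of 32851 windows of the same length in the table, 10.9% held the FOXH1-type letters, 17.1% the SMAD-type letters, 32.7% the GC box, 33.8% CCAAT and 12.4% TATAAA. A match describes the letters and does not show that a factor binds there, and enhancers outside these windows were not searched.

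The feedback antagonists Lefty1 and Lefty2 had nearly equal signals in both states. Lefty1 (1417638_at) had a signal of 2175 at day 15 and 1998 in undifferentiated cells, 1.09-fold higher with a log2 difference of 0.12. Lefty2 (1436227_at) had 768 at day 15 and 792 in undifferentiated cells, 1.03-fold lower with a log2 difference of -0.04. Both genes lie on chromosome 1, and their differences were 0.17 apart on the log2 scale. Each has 1 probe set, and whether either probe set also binds transcripts of the other gene was not tested.

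The sign of the Lefty1 difference depended on how the arrays were scaled, while Lefty2 stayed below 0 under all 3 scalings. With scaling on the bacterial hybridization controls Lefty1 was at -0.27 and Lefty2 at -0.42, and with quantile normalization they were at 0.24 and -0.06. Contrasts between members are hardly touched by a factor common to an array, as in the control scaling. Quantile normalization applies no common factor and can change them. With it Foxh1 was at -1.92 and Tdgf1 at -0.87, against -1.69 and -1.04 as deposited. The contrasts that follow are as deposited. The log2 difference of Lefty1 exceeded that of Nodal by 0.87, that of Tdgf1 by 1.16, that of Foxh1 by 1.82 and that of Gdf3 by 2.30. For Lefty2 the excess was 0.70 over Nodal, 1.00 over Tdgf1 and 1.65 over Foxh1. The spread of log2 differences among the probe sets of a gene, pooled over 5157 genes with several of them past the filter, was an SD of 0.53. It includes no variation between cultures, and a contrast between 2 genes carries the spread of both.

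Cer1, a secreted antagonist of Nodal, BMP and WNT ligands that marks the anterior visceral endoderm of the embryo, was not measured above background on either array. Its 2 probe sets read 14.5 and 3.20 at day 15 and 14.9 and 2.70 in undifferentiated cells (1450257_at and 1450256_at in that order). All 4 signals lay below the brightest control without target, so no fold is given.

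Foxh1, the forkhead partner of SMAD2 and SMAD3, was lower at day 15 on all 3 of its probe sets. The brightest (1422213_s_at) had a signal of 118 at day 15 and 417 in undifferentiated cells, which is 3.54-fold lower with a log2 difference of -1.69. The probe set 1422212_at had 94.1 at day 15 and 335 in undifferentiated cells, and 1437779_at had 90.9 at day 15 and 303 in undifferentiated cells. Their log2 differences were -1.67 and -1.58, so the 3 probe sets lay close together. Of all genes past the filter, 1.31% had a log2 difference below that of Foxh1.

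The 2 proteases that cut the Nodal precursor differed in direction. Pcsk6 (1426981_at) had a signal of 255 at day 15 and 406 in undifferentiated cells, 1.59-fold lower with a log2 difference of -0.64. Furin (1418518_at) had 688 at day 15 and 143 in undifferentiated cells, 4.81-fold higher with a log2 difference of 2.15. The log2 difference of Furin exceeded that of Pcsk6 by 2.78, with 1 probe set for each gene. Of all genes past the filter, 5.69% had a log2 difference above that of Furin.

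**Figure D2:**
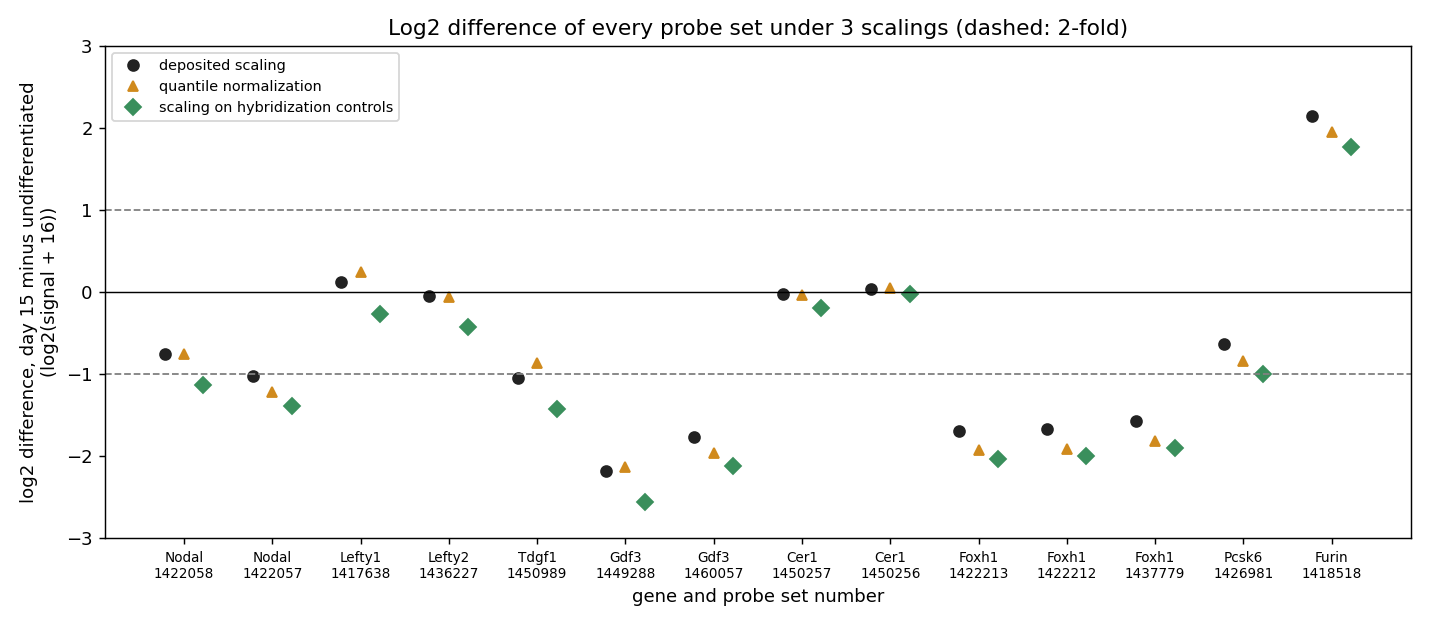
Log2 difference, day 15 minus undifferentiated, of each probe set under the deposited scaling (circles), quantile normalization (triangles) and scaling on the hybridization controls (diamonds), with 2-fold as dashed lines. Gdf3 and Foxh1 lay below -1 and Furin above 1 under all 3 scalings, Tdgf1 lay above -1 with quantile normalization, and Lefty1 lay below 0 with the control scaling alone of these 3.

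Furin has 2 annotated starts in the RefSeq promoter table, shown because the gene was the 1 member at least 2-fold higher at day 15. The first start is the upstream one; its window lies at chr7:80405437-80405686 and that of the second start at chr7:80402813-80403062, both on the minus strand of build GRCm38.p6. Capitals mark the same motifs.
Furin, first start: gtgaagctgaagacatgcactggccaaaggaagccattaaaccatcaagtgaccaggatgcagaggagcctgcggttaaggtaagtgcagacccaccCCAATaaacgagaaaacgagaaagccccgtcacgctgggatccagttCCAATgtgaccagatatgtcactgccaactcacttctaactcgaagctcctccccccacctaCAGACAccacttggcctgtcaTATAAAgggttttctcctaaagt
Furin, second start: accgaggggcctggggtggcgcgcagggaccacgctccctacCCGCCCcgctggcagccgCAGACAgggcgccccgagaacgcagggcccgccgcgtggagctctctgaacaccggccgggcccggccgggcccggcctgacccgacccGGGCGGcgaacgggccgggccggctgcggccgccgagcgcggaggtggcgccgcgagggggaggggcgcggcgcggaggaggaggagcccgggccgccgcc

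The first window had a GC content of 50.4% and held 1 TATAAA match, 2 CCAAT matches and 1 SMAD-type match. The second had a GC content of 83.2%, with 40 CG pairs against 6 in the first, and held 2 GC boxes and 1 SMAD-type match. Which start gives the RNA that the probe set measured was not tested. Over all windows in the table the median GC content was 52.4%.

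**Figure D3:**
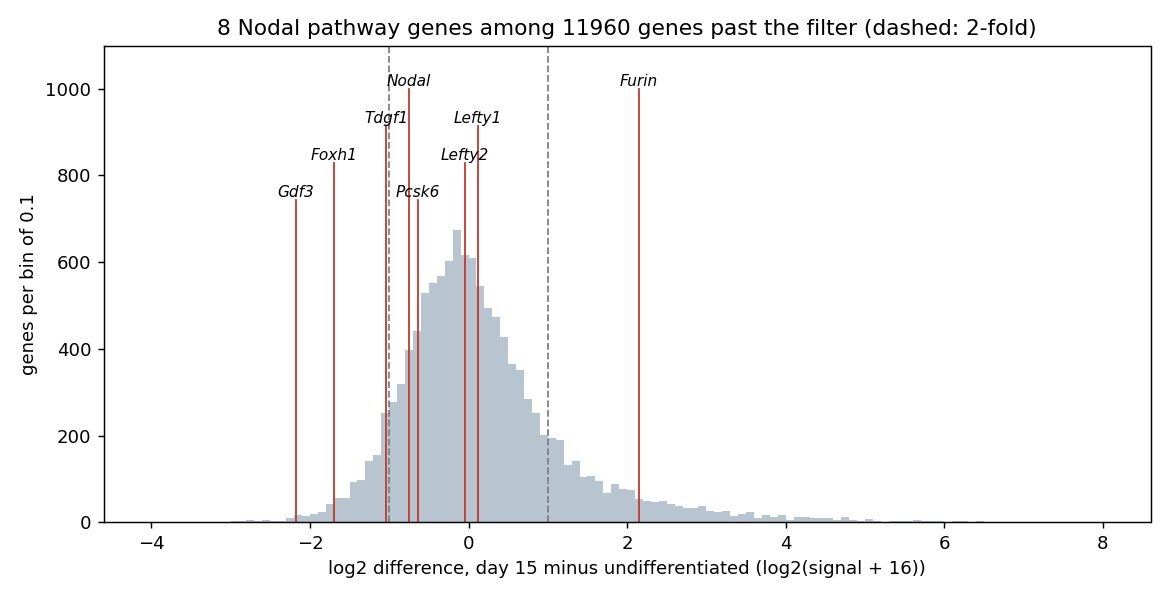
Log2 differences of the 11960 genes past the filter (grey, genes per bin of 0.1), with the 8 Nodal pathway genes past the filter as red lines and 2-fold as dashed lines. Gdf3 (-2.18) and Foxh1 (-1.69) lay in the lower tail, Furin (2.15) in the upper tail, and Lefty1 and Lefty2 near the peak.

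Most other ligands, receptors and SMADs of the pathway lay within 2-fold, as did 8979 of all 11960 genes past the filter. Among all these genes, 16.5% lay above the 2-fold range and 8.41% below it. Of 10 measured genes 9 passed the filter, of which 2 were at least 2-fold higher and 1 was lower, with a median log2 difference of 0.32. Inhba, the activin A subunit gene, had a signal of 213 at day 15 and 6.60 in undifferentiated cells and was at least 5.99-fold higher. It passed the filter through its day 15 signal, and its other probe set read 6.70 and 4.90 in the same order. Smad3 had 652 at day 15 and 227 in undifferentiated cells, 2.88-fold higher, and its 2 other probe sets, both short of the filter, had log2 differences of -0.70 and 0.59. Acvr2b, a type II activin receptor gene, had 126 at day 15 and 278 in undifferentiated cells, 2.20-fold lower. The type I receptor gene Acvr1b (log2 difference 0.47) and the type II receptor gene Acvr2a (0.26) lay within 2-fold, as did Smad2 (0.32) and Smad4 (0.70). Cfc1, the second EGF-CFC co-receptor gene beside Tdgf1, had a log2 difference of -0.79, while Acvr1c was below background on both arrays.

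Other antagonists and negative regulators held no gene at least 2-fold lower as deposited. That count was 1 with quantile normalization and 2 with scaling on the hybridization controls. Of 16 measured genes 14 passed the filter, 2 were at least 2-fold higher, and the median log2 difference was 0.25. The shares of all genes past the filter were 8.41% lower and 16.5% higher as deposited. The lower share was 11.4% with quantile normalization and 18.8% with the control scaling. Pmepa1, a TGF-beta target that dampens SMAD signalling, had a signal of 879 at day 15 and 297 in undifferentiated cells, 2.96-fold higher, with 3 probe sets between 1.47 and 1.61 on the log2 scale. Fst, which encodes the activin-binding protein follistatin, had 236 at day 15 and 73.1 in undifferentiated cells, 3.22-fold higher, and its second probe set had a log2 difference of 0.48. The inhibitory SMAD gene Smad7 had a log2 difference of 0.34 on the probe set that is brighter by mean log2 signal. That probe set read 706 at day 15 and 555 in undifferentiated cells. The other read 1416 at day 15 and 210 in undifferentiated cells, a log2 difference of 2.67. It carries the suffix x for probes shared with other transcripts. Tgif2 had a log2 difference of -0.96, 1.99-fold lower by signal. Smurf1 was 2.01-fold higher by signal but at 0.95 on the log2 scale, short of the call. Dand5, a Cerberus family antagonist gene, had 33.2 at day 15 and 5.10 in undifferentiated cells, both below background.

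Among 5 other measured proprotein convertase genes 4 passed the filter. Pcsk5 was the 1 gene at least 2-fold higher, against 16.5% of all genes past the filter. It had a signal of 151 at day 15 and 17.6 in undifferentiated cells, at least 4.23-fold higher, on a probe set with the suffix s that passed the filter through its day 15 signal. Its other probe sets, all short of the filter, had log2 differences of -0.43, -0.34, 0.99 and 1.93. Pcsk4 (-0.23), Pcsk7 (0.04) and the site-1 protease gene Mbtps1 (-0.16) lay within 2-fold, and Pcsk1 was below background on both arrays.

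Genes of the primitive streak, node and definitive endoderm, several of them known targets of Nodal in the embryo, were in part below background. Of 13 measured genes 7 passed the filter, 0 were at least 2-fold higher and 1 was lower, with a median of -0.04. The shares of all genes past the filter were 16.5% and 8.41% in that order. On both arrays 4 of the 13 lay below the brightest control without target, among them the streak genes Mixl1 and Wnt3. Otx2, a homeobox gene of the epiblast and anterior brain, had a signal of 349 at day 15 and 845 in undifferentiated cells, 2.42-fold lower. Evx1 had 84.9 at day 15 and 34.6 in undifferentiated cells, at least 2.38-fold higher by signal but at 1.00 on the log2 scale, just short of the call. Sox17 had log2 differences of 0.65 and 1.88 on its 2 probe sets. Fgf8 read 2.80 at day 15 and 32.6 in undifferentiated cells, both below background. Eomes had 131 at day 15 and 136 in undifferentiated cells, and Gsc 36.3 at day 15 and 35.8 in undifferentiated cells.

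**Figure D4:**
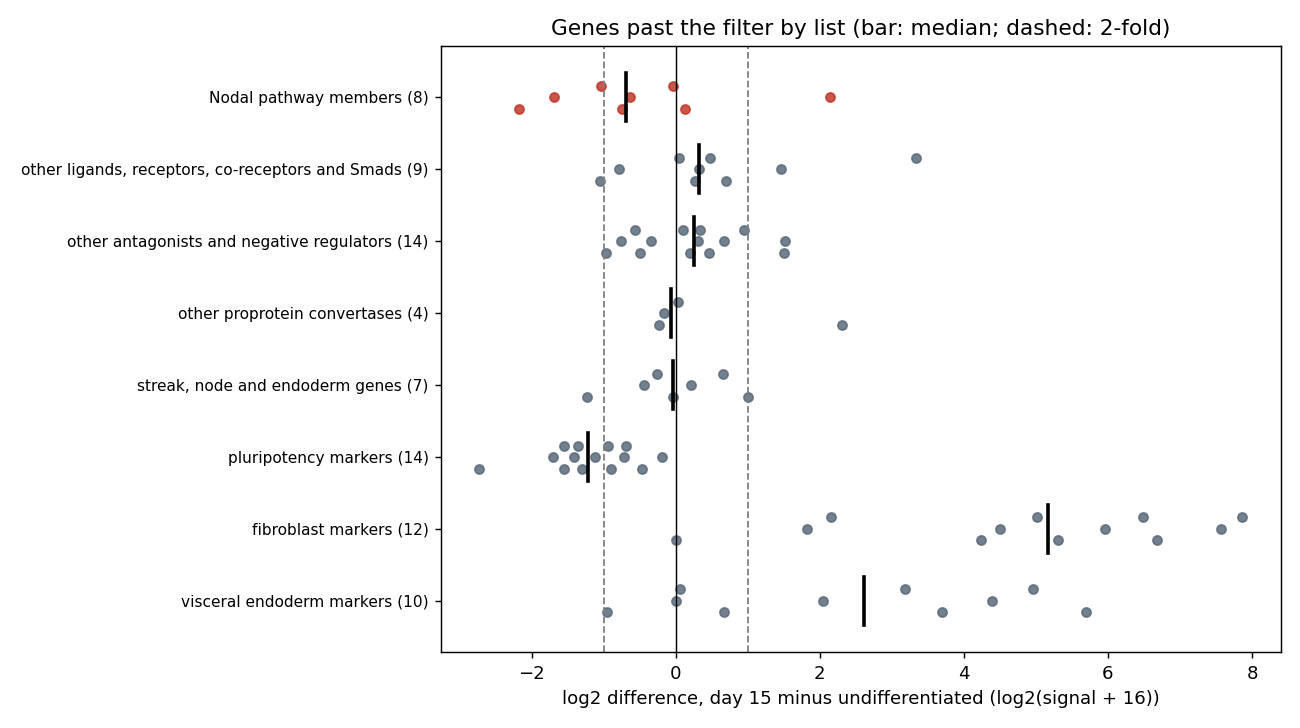
Log2 difference of each gene past the filter, by gene list, with the number of genes in brackets, the median as a black bar and 2-fold as dashed lines. The Nodal pathway genes (red) had a median of -0.69, between those of the pluripotency markers (-1.21) and of the other pathway lists (-0.06 to 0.32). With the mean over probe sets the median was -0.761 for the Nodal pathway genes and -0.765 for the pluripotency markers. Fibroblast and visceral endoderm markers had medians of 5.16 and 2.61, and of 5.02 and 0.82 without the filter.

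Markers of the stem cells and of other cell types also differed between the arrays, and their part in the differences of the 9 genes was not tested. Of 14 pluripotency markers 8 were at least 2-fold lower at day 15 (Pou5f1, Zfp42, Esrrb, Klf2, Dppa3, Tfcp2l1, Utf1 and Fgf4) and 0 were higher, with a median of -1.21, a range of -2.73 to -0.19 and none below background on either array. Their summed signal was 22348 at day 15 and 47206 in undifferentiated cells. Of all genes past the filter, 8.41% were at least 2-fold lower and 16.5% at least 2-fold higher. With the mean over probe sets, 4 pluripotency markers were at least 2-fold lower. By the brightest probe set of each gene, Lefty1 and Lefty2 had log2 differences above those of all 14 markers. Nodal lay above 10 of them, Tdgf1 above 8, Foxh1 above 2 and Gdf3 above 1. Dimmer probe sets past the filter differed for some markers. A Tbx3 probe set (0.53) lay above both Lefty genes, an Fgf4 probe set (-0.03) lay above Lefty2, and an Esrrb probe set was at -0.31.

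Of 13 fibroblast markers 12 passed the filter and 11 were at least 2-fold higher (Col1a1, Col1a2, Col3a1, Col5a1, Postn, Lum, Dcn, Fn1, Pdgfrb, S100a4 and Vim), while Thy1 had a log2 difference of 0.01 and Fap was below background on both arrays. Their summed signal was 59479 at day 15 and 5514 in undifferentiated cells. Of 15 visceral endoderm markers 10 passed the filter and 6 were at least 2-fold higher (Afp, Ttr, Gata4, Gata6, Rbp4 and Dab2), with a summed signal of 4540 at day 15 and 706 in undifferentiated cells. Beside the counts of both lists, 16.5% of all genes past the filter were at least 2-fold higher. Afp, Ttr and Gata6 passed the filter through their day 15 signals, with 1.10, 2.70 and 24.1 in undifferentiated cells. So did the fibroblast markers Col1a1, Postn, Lum and Pdgfrb. Cubn, past the filter, had a log2 difference of 0.06, and Hnf4a, short of the filter, had -0.20. Amn, past the filter too, had 72.0 at day 15 and 154 in undifferentiated cells, 2.14-fold lower by signal with a log2 difference of -0.95. It was called lower with quantile normalization, with the control scaling and with a pseudocount of 1. Apoa4 was below background on both arrays, and Apoa1, short of the filter, had 90.1 at day 15 and 4.50 in undifferentiated cells, at least 2.53-fold higher. The list held 3 genes of the anterior visceral endoderm. Dkk1 had 59.8 at day 15 and 31.5 in undifferentiated cells, at least 1.68-fold higher, and Hhex had 120 at day 15 and 119 in undifferentiated cells. Hesx1, short of the filter, had 5.10 at day 15 and 97.2 in undifferentiated cells, at least 2.73-fold lower.

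As a description of the Nodal pattern, the 3 genes nearest to it in log2 signal over both arrays were Gprasp1, Itpa and Tarbp2, at Euclidean distances of 0.0076, 0.033 and 0.041. With 2 arrays this says only that their brightest probe sets had like signals.

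Both arrays had been brought to a trimmed mean of 250 before deposit. Against that scaling the 18 hybridization controls were brighter at day 15 by a mean of 0.39 (log2, SD 0.11), and scaling on them moved the median gene by -0.36, while quantile normalization moved it by -0.13. The share of higher genes among all calls at day 15 was 66.3% as deposited, 54.6% with quantile normalization and 37.7% with the control scaling, where 18.8% of genes were at least 2-fold lower and 11.3% at least 2-fold higher. With that scaling Nodal (-1.13) and Pcsk6 (-1.002) also passed the 2-fold line, so 5 of the 8 genes were lower and 1 was higher. The ratio of 3' to 5' signal was 1.72 at day 15 and 2.34 in undifferentiated cells for beta-actin, and 0.817 and 0.815 in the same order for Gapdh. The Lys poly-A control probe sets were bright at day 15 alone (5124 to 11560, against at most 15.3 in undifferentiated cells) and the Dap ones in undifferentiated cells alone (at most 18.1 at day 15, against 4158 to 15243).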

How the data were processed

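Biotinylated cRNA from total RNA of 1 sample per condition was hybridised to Affymetrix mouse arrays, per the labels' protocols. Each deposited value is an intensity on a linear scale for a probe set. The authors had scaled these, since the mean after trimming 2% from each tail was 250 on both arrays. The summarising software is not given in the sources used here. Affymetrix controls, 64 in number, were set aside. The platform annotation names 1 gene for 34945 probe sets and several for 932, and 9160 are not listed there. Symbols were updated by gene identifier through RefSeq (GRCm38.p6) for 34741 probe sets.

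Differences were taken on log2(signal + 16), which understates those of dim genes. A fold with its dimmer signal under 35.6 was computed against 35.6 and is written as a lower bound, and no fold is given with both signals under it. Genes were filtered at the 50th percentile of mean log2 signal over all probe sets. Of other lists, all members past 2-fold and at least 3 members were to be named, and the 3 nearest genes to Nodal. Acvr1b, Acvr2a, Acvr1c, Smad2, Smad4, Cfc1, Smad7, Tgif2, Smurf1, Sox17, Eomes, Gsc, Mixl1, Wnt3, Thy1, Fap, Apoa4, Amn, Dkk1, Hhex, Pcsk1 and Pcsk7 were named after their values were seen. The same holds for Cubn, Hnf4a and Tbx3. The members and lists were chosen with earlier results of these data known. Gdf1, Pcsk2, T and Noto were not analysed here. Calculations used Python 3.11.15, numpy 2.4.6 and pandas 2.3.3 and were tested on simulated data. The number of arrays limits the precision.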

Additional observations from a re-analysis of the deposited data

How the results depend on the processing

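No paired analysis was possible because each condition has 1 array, and no array could be left out. Of the 9 genes, 3 were at least 2-fold lower at day 15 as deposited, 2 with quantile normalization (without Tdgf1, at -0.87) and 5 with scaling on the hybridization controls. That count was 3 without a filter, with pseudocounts of 1 and 64, with a filter set to the 75th percentile, with the mean over probe sets and without those whose suffix is a, s or x. Of all genes past the filter, 8.41% were lower as deposited, 11.4% with quantile normalization and 18.8% with the control scaling. The shares at least 2-fold higher were 16.5%, 13.8% and 11.3% in the same order. Furin was the 1 gene at least 2-fold higher in all 8 alternatives. The median of the genes past the filter ran from -1.07 with the control scaling to -0.63 with a pseudocount of 64. In the 72 single-gene values over those alternatives, no difference moved by more than the SD of 0.53 between probe sets of 1 gene. For several settings this was fixed in advance. A filter cannot move a single-gene value, and the mean over probe sets cannot move a gene with 1 probe set. The control scaling can move a value by at most 0.39. The calls of Tdgf1, Nodal and Pcsk6 did change with the scaling. Gdf3 ran from -2.55 to -1.97, Foxh1 from -2.03 to -1.40, Nodal from -1.13 to -0.71 and Lefty1 from -0.27 to 0.24. Of 168 values for the other lists 32 moved. With the mean over probe sets 0 other ligand, receptor and SMAD genes were at least 2-fold lower or higher and 4 pluripotency markers lower. Without the a, s and x suffixes, Pcsk5 and Otx2 were no longer called. The visceral endoderm median was 0.82 without a filter. The dim signals of Cer1, Dand5 and Fgf8 limit what can be said of them.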
